A study of Bos taurus with 170 samples.

Results

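The genes described here encode the core of the RNA splicing machinery and the proteins that steer it. They were chosen by name: all 72 symbols of the 10772 in the UMI count table that begin with SNRP, SRSF, SF3A, SF3B, HNRNP, PRPF, LSM or U2AF. These are 10 SNRP, 12 LSM, 3 SF3A, 6 SF3B, 2 U2AF, 10 PRPF, 10 SRSF and 19 HNRNP genes. Membership follows from the name, so that LSMEM1, which is not a splicing protein, is included, as are LSM1 and LSM14A, whose proteins act mainly outside the spliceosome.

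Introns are removed from pre-mRNA by the spliceosome, which assembles anew on each intron from small nuclear ribonucleoproteins (snRNPs), each a small RNA with its own set of proteins. U1 binds the 5′ splice site, U2AF and U2 the 3′ splice site and the branch point, and the joined U4, U6 and U5 particles complete the machine, after which U1 and U4 leave. SR proteins and hnRNPs bind the pre-mRNA and favour or block particular splice sites. In a cleaving embryo much of the mRNA was made before fertilisation, and in cattle the main onset of transcription from the new genome falls around the stages sampled here.

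Single blastomeres came from untreated bovine embryos that were produced by maturation and fertilisation of oocytes in vitro and cultured in synthetic oviduct fluid with serum. The oocytes were taken from ovaries collected at a slaughterhouse and the labels name no dam. The authors chose embryos whose cleavage timing came nearest to the ranges with the highest rate of blastocysts. By the times in the paper some cleaved later than these ranges, among them Day3-E1. There were 6 Day 2 embryos labelled as 8-cell stage (43 cells used) and 8 Day 3 embryos labelled as 16-cell stage (118 cells used), with 6 to 9 and 13 to 17 cells of an embryo in the table. SCRB-Seq, a plate-based method, gives each captured mRNA molecule a random tag (unique molecular identifier, UMI) next to its poly(A) tail, and copies made by PCR then count as 1. The labels tie each cell to its embryo. UMI were summed over the cells of an embryo with 2000 or more UMI, and the embryo was the replicate. Levels are in CPM, UMI per 1000000 UMI on genes in the embryo. CPM is a share of the captured mRNA, in which more of one RNA and less of the others cannot be told apart. Each molecule is counted once at its end, so a level is not divided by the length of the gene, but genes can differ in how well they are captured. Of 10 markers of the oocyte and early embryo, all passed the filter on low counts, and 4 of them (GDF9, ZP2, ZAR1 and OOEP) fell on Day 3. Of 10 markers of cumulus cells, the somatic cells around the oocyte, 3 passed, and their summed level over all 10 was 504 to 608 CPM on Day 2 and 190.5 to 549.8 on Day 3. HAS2 and STAR gave most of it, and the granulosa genes AMH, CYP11A1 and INHA had 1, 2 and 0 UMI in all Day 2 embryos together and 10, 1 and 1 in all Day 3 embryos. The part of these cells in the results was not tested.

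An embryo held 294912 to 920192 UMI on genes. The labels give 93 distinct cell barcodes, of which 77 were used by 2 cells, so that the cells fall into at least 2 pools. The labels name no pool, but embryos that share a cell barcode cannot lie in the same one. On this basis Day3-E1, Day3-E2 and every Day 2 embryo were placed in a first inferred pool, called the first barcode set here. Day3-E4 to Day3-E8 were placed in a second, and the set of Day3-E3 is not settled by the labels. The pools also differed in spike-in content: there were 64.8 to 71.7 gene UMI per UMI of the ERCC spike-in RNAs in the Day 2 embryos and in Day3-E1 to Day3-E3, and 32.6 to 40.2 in Day3-E4 to Day3-E8. Day and pool therefore cannot be told apart for the second set. The first set alone leaves 2 Day 3 embryos, one of them Day3-E1, so that calls can be lost there for want of embryos, and its values are given beside the splicing genes called over all embryos. The sample titles also end in p1, p2 or p3, which the labels do not explain: 4 Day 2 embryos carry p3 with Day3-E5 and Day3-E6, 2 carry p2 with Day3-E7 and Day3-E8, and p1 is carried by Day 3 embryos only. Day 3 embryos with the same suffix were also collected at the same time after fertilisation, so suffix and collection time cannot be told apart among them.

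Most splicing genes held a larger share of the mRNA on Day 3 than on Day 2. All 72 had UMI in the cells used, and 68 passed the filter on low counts. In edgeR's quasi-likelihood test over all 5274 genes that passed, at an adjusted p (Benjamini and Hochberg) below 0.05, 39 of the 68 rose and 2 fell (PRPF3 and SNRPE), while 21.2% of all genes tested rose and 11.28% fell. With levels scaled to the spike-ins instead, 7 of the 39 (HNRNPA3, HNRNPUL1, LSM4, SNRPD1, SNRPD3, SNRPG and SRSF10) had negative log2 fold changes. Gene UMI per spike-in UMI were low only in Day3-E4 to Day3-E8, the second barcode set. Under this scaling, here and below, day and pool therefore cannot be told apart. The median log2 fold change, Day 3 minus Day 2, was 1.01 over the 68 genes and -0.04 over all genes. These fold changes were scaled by TMM, which sets most genes as unchanged, and in plain CPM the median of all genes was -0.27, so that a small positive fold change can go with equal mean CPM. For 16 of the 39 the log2 fold change was over 2. Every Day 3 value exceeded every Day 2 value for 9 of the 68 genes, against 3.98% of all genes, and every one was lower for 0, against 5.38%. Of the 39 calls 31 held whichever single embryo was left out. Without Day3-E1, whose values lay nearest to Day 2, 43 genes rose and 4 fell, against 24.0% and 17.7% of all genes.

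Summed over all 72 genes, the level averaged 19162 ± 1000.2 CPM over the 6 Day 2 embryos and 29348 ± 6552 over the 8 Day 3 embryos (mean ± SD, as in all such values here). By subfamily, the median log2 fold change was 1.74 for SRSF, 1.67 for SF3B, 1.31 for HNRNP, 1.16 for PRPF, 0.77 for SNRP, 0.62 for U2AF, 0.19 for LSM and -0.03 for SF3A. The SR protein genes (SRSF) summed to 1235 to 1448 CPM on Day 2 and to 1488 to 5952 on Day 3, without overlap, and the mean was 3.101 times higher. The SF3B sum went from 1049 ± 71.8 to 2488 ± 1326 CPM and the HNRNP sum from 5149 ± 228 to 10177 ± 3539, with 7 of 8 Day 3 embryos above every Day 2 embryo in both and Day3-E1 within the Day 2 range. The SNRP sum went from 5791 ± 901 to 7229 ± 1041, and 3 Day 3 embryos lay above the Day 2 range. In the LSM and PRPF families the mean sums of the days differed by less than the spread between embryos, at 1519 ± 134 and 1496 ± 251 CPM for LSM and 2693 ± 110.4 and 2635 ± 185 for PRPF. The SF3A sum was lower on Day 3, 997 ± 254 against 1497 ± 112, and all 8 Day 3 embryos lay below all Day 2 embryos. These sums are described without a test, and the abundant genes weigh most in them.

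**Figure D1:**
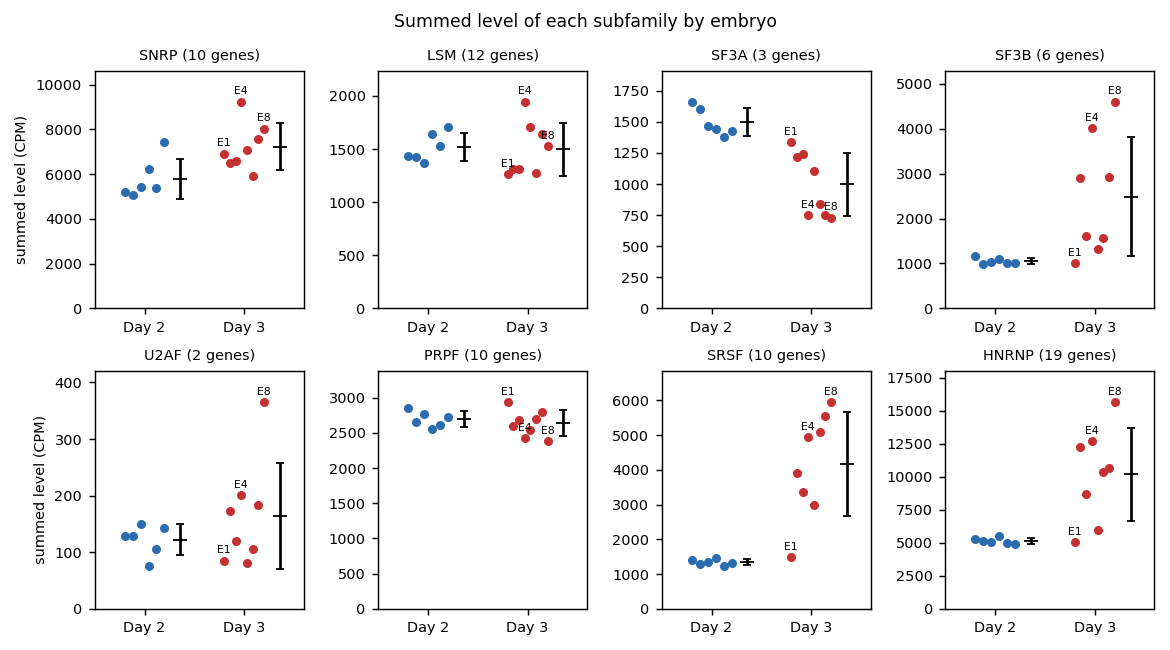
Summed level of each subfamily in CPM (y axis, from 0), with 1 point for each Day 2 embryo (blue) and Day 3 embryo (red) in the order of embryo number, and the mean with SD in black. Day3-E1 lies at the Day 2 level for SF3B and HNRNP, while the SRSF sums of Day 3, 1488 CPM or more, lie above every Day 2 embryo and all SF3A sums of Day 3, 1339.6 CPM or less, lie below.

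Of the 72 genes, 4 had too few UMI to be tested. HNRNPH2 had 178 UMI in all embryos together, LSM10, a protein of the U7 particle that processes histone mRNA, had 73, HNRNPLL had 34 and LSMEM1 had 7. Of the 68 tested, 5 (LSM5, LSM8, PRPF39, SNRPA and SRSF6) would not have passed the filter on the Day 2 embryos alone and 8 on the Day 3 embryos alone (4 of these 5, LSM6, SF3A2, SF3B3 and U2AF1). The cutoff of this filter depends on the embryos given to it, so these lists alone do not show which day carried a gene. LSM8, PRPF39, SF3A2 and SRSF6 had Day 2 medians of 17.3, 19.6, 20.6 and 21.7 CPM, against 80.4, 43.5, 59.2 and 149 on Day 3. They passed mainly through their Day 3 values, and their rises below are to be read with that limit.

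The Sm proteins form the ring around the RNA of U1, U2, U4 and U5. All 7 of their genes in the table were tested, and they did not move together: 5 rose, SNRPE fell and SNRPF did not pass the test. SNRPB, from which the B proteins of the ring are made, was the scarcest on Day 2, with 33.5 to 63.8 CPM (median 44.9). On Day 3 it had 26.7, 502, 70.7, 412, 70.2, 217, 365 and 893 in Day3-E1 to Day3-E8 in turn. Day3-E1 lay below the Day 2 range, Day3-E3 and Day3-E5 barely above it, and the others far above (log2 fold change 3.25, standard error 0.70, adjusted p = 0.00248 in edgeR). SNRPD2 had 171 ± 49.0 CPM on Day 2 and 611 ± 439 on Day 3 and rose (log2 fold change 2.27, standard error 0.53, adjusted p = 0.00402). SNRPD3 (log2 fold change 0.80, adjusted p = 0.00813), SNRPD1 (log2 fold change 0.74, adjusted p = 0.0241) and SNRPG (log2 fold change 0.60, adjusted p = 0.0285) rose less, and scaled to the spike-ins their log2 fold changes were -0.06, -0.13 and -0.23. In all 3 the days overlapped. SNRPD1 lost its call without Day2-E1, Day2-E2, Day2-E3, Day2-E4 or Day2-E5 (adjusted p = 0.0544 to 0.0704) and SNRPG without Day2-E1, Day2-E2, Day2-E3, Day2-E4, Day2-E5 or Day3-E7 (adjusted p = 0.0618 to 0.101). SNRPF was the most abundant gene of all 72, at 2009, 2153 and 3192 CPM (lowest, median and highest) on Day 2 and 793, 1552 and 3137 on Day 3 (log2 fold change -0.14, standard error 0.22, adjusted p = 0.642). Its lowest value was that of Day3-E8, the embryo in which SNRPB was highest. SNRPE had 315 to 517 CPM (median 373) on Day 2 and 152 to 342 on Day 3, where Day3-E1 alone lay within the Day 2 range (log2 fold change -0.57, standard error 0.21, adjusted p = 0.0480). This call was lost without Day2-E4, Day2-E5, Day2-E6, Day3-E2, Day3-E3, Day3-E4, Day3-E5, Day3-E6 or Day3-E7 (adjusted p = 0.0504 to 0.0876). In the first barcode set alone, SNRPB was called (log2 fold change 2.798, adjusted p = 0.0282), and SNRPD2, SNRPD3, SNRPD1, SNRPG and SNRPE were not (log2 fold changes 1.4998, 0.54, 0.58, 0.24 and -0.32, adjusted p = 0.0836 to 0.524).

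The balance between the 2 ends of the ring's abundance shifted with this. SNRPF held 40.1 to 78.8 UMI for each UMI of SNRPB in the Day 2 embryos. On Day 3 the ratio was 118 in Day3-E1, 37.2 in Day3-E3 and 36.3 in Day3-E5, and between 0.888 and 5.63 in the other 5 embryos. It thus lay below the Day 2 range in 7 of 8 Day 3 embryos and above it in Day3-E1. The genes of this pair were picked for their difference, so the ratio is given without a test.

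U1 recognises the 5′ splice site with the help of SNRPC, which steadies the pairing of its RNA. SNRPC had 145 to 229 CPM (median 180.2) on Day 2 and 259.9, 593, 587, 1769, 460.1, 848, 1009 and 1303 in Day3-E1 to Day3-E8 in turn. Every Day 3 value exceeded every Day 2 value, and Day3-E1 was the nearest to them (log2 fold change 2.602, standard error 0.43, adjusted p = 0.000376 in edgeR). The rise was also called within the first barcode set, with a log2 fold change of 1.44 (adjusted p = 0.0181). SNRPA, which binds a loop of U1 RNA, was low, at 22.0 ± 10.77 and 41.4 ± 32.4 CPM, and did not pass the test (log2 fold change 1.17, adjusted p = 0.107). It did without Day3-E1 (adjusted p = 0.0346).

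U2AF reads the end of the intron before U2 joins. Its small subunit gene U2AF1 had 27.4, 48.5 and 67.3 CPM (lowest, median and highest) on Day 2 and 15.596, 42.1 and 82.4 on Day 3 (log2 fold change 0.13, standard error 0.36, adjusted p = 0.806 in edgeR). The related U2AF1L4 had 48.7, 78.4 and 83.1 CPM on Day 2 and 55.0, 99.9 and 283 on Day 3, the highest being that of Day3-E8. It passed the test narrowly (log2 fold change 1.12, standard error 0.41, adjusted p = 0.0452), the days overlapped, and the call was lost without Day2-E1, Day2-E2, Day2-E3, Day2-E4, Day2-E5, Day2-E6, Day3-E2, Day3-E4, Day3-E7 or Day3-E8 (adjusted p = 0.0574 to 0.116) and within the first barcode set (log2 fold change 0.41, adjusted p = 0.566). Whether these 2 related genes exchange reads was not tested. The large subunit gene U2AF2 had no row under that symbol in the UMI count table, so its level could not be read.

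The branch point is held by the SF3A and SF3B subunits of U2, and these 2 parts of one particle differed in their sums. Within SF3A, SF3A3 was abundant and SF3A2 scarce on Day 2. SF3A3 had 1029 to 1239.6 CPM (median 1094) on Day 2 and 1116, 787, 898, 302, 819, 530.4, 398 and 255 in Day3-E1 to Day3-E8 in turn. Day3-E1 kept the Day 2 level and all other Day 3 embryos lay below it, with Day3-E4 and Day3-E8 the lowest, but the change missed the threshold (log2 fold change -0.60, standard error 0.23, adjusted p = 0.0531 in edgeR). It passed without Day3-E1, Day3-E2, Day3-E3 or Day3-E5 (adjusted p = 0.0142 to 0.0488). Within the first barcode set its log2 fold change was -0.057 (adjusted p = 0.885), and among the p2 and p3 embryos -0.90 (adjusted p = 0.00218). SF3A2 rose, from 15.9, 20.6 and 29.4 CPM (lowest, median and highest) on Day 2 to 11.66, 59.2 and 154 on Day 3 (log2 fold change 2.01, standard error 0.52, adjusted p = 0.00821). SF3A2 was not called within the first barcode set (log2 fold change 1.05, adjusted p = 0.355). Its lowest Day 3 value was that of Day3-E1, below the Day 2 range, and its highest those of Day3-E8 and Day3-E4. SF3A1 had 365 ± 50.6 and 291 ± 47.1 CPM (log2 fold change -0.03, adjusted p = 0.931). SF3A3 held 35.0 to 67.9 UMI per UMI of SF3A2 on Day 2, 95.7 in Day3-E1, and from 1.65 to 26.4 over Day3-E2 to Day3-E8. This pair was also picked for its difference, so the ratio is given without a test.

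All 6 SF3B genes had positive log2 fold changes and 4 rose. SF3B1, the large scaffold that closes around the branch point adenosine, had 123 to 161 CPM (median 139.9) on Day 2. On Day 3 it had 128, 787, 372, 777, 177, 318, 711 and 842 in Day3-E1 to Day3-E8 in turn. Day3-E1 lay within the Day 2 range and the other 7 above it (log2 fold change 2.25, standard error 0.45, adjusted p = 0.00155 in edgeR). SF3B5, a small subunit of the same core, showed the same order of embryos at the ends, from 112 CPM in Day3-E1 to 1714 in Day3-E8, against 84.3 to 131 on Day 2 (log2 fold change 3.26, standard error 0.59, adjusted p = 0.000701). It became the most abundant SF3B gene. SF3B3 (log2 fold change 1.98, adjusted p = 0.0121) and SF3B6 (log2 fold change 1.36, adjusted p = 0.00269), the subunit next to the branch point, rose as well, and for SF3B6 the days did not overlap. SF3B2 (log2 fold change 0.56, adjusted p = 0.167) and SF3B4 (log2 fold change 0.65, adjusted p = 0.0612) did not pass, but SF3B4 did without Day3-E1 or Day3-E3 (adjusted p = 0.0215 to 0.0332). Within the first barcode set SF3B1, SF3B5 and SF3B6 were called (log2 fold changes 1.95, 2.43 and 0.95, adjusted p = 0.0174 to 0.0269) and SF3B3 was not (log2 fold change 0.93, adjusted p = 0.363). SNRPA1, another U2 protein, had 189 ± 26.1 CPM on Day 2 and 148 ± 47.7 on Day 3 (log2 fold change -0.03, adjusted p = 0.937).

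**Figure D2:**
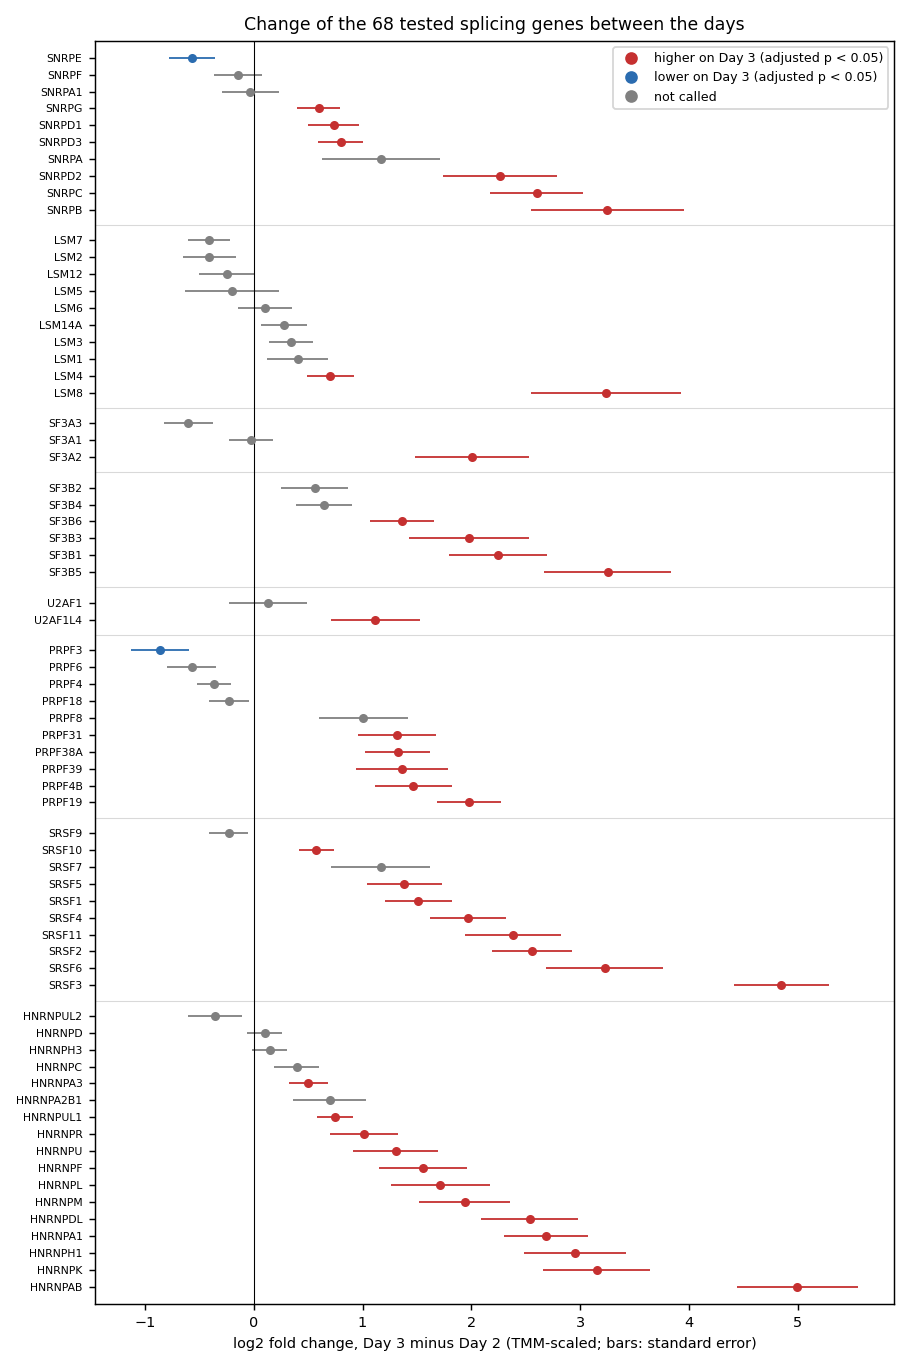
Log2 fold change of each of the 68 tested genes, Day 3 minus Day 2, with its standard error (x axis), grouped by subfamily and sorted within it. Red marks the 39 genes that rose (7 of them negative under spike-in scaling), blue the 2 that fell and grey those not called, and points lie on both sides of 0 in every subfamily but SF3B and U2AF.

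U4, U6 and U5 arrive as one particle, the tri-snRNP. Of its 5 PRPF genes, PRPF31 rose, PRPF3 fell and 3 were not called. With so few genes these counts do not stand apart from all genes tested, of which 21.2% rose and 11.28% fell. PRPF3, which sits on U4 and U6, had 185 to 247 CPM (median 235) on Day 2 and 187, 166, 162, 32.9, 85.8, 85.5, 64.7 and 74.7 in Day3-E1 to Day3-E8 in turn. Day3-E1 lay within the Day 2 range at its lower end and the other 7 below it (log2 fold change -0.86, standard error 0.27, adjusted p = 0.0210 in edgeR). Within the first barcode set the log2 fold change was -0.20 (adjusted p = 0.610), and among the p2 and p3 embryos, which include both days, -1.25 (adjusted p = 0.000437). Its partner PRPF4 (log2 fold change -0.36, adjusted p = 0.0834) and the bridging protein gene PRPF6 (log2 fold change -0.57, adjusted p = 0.0611) had negative values that missed the threshold, and PRPF6 passed without Day3-E1, Day3-E2 or Day3-E3 (adjusted p = 0.0229 to 0.0410). For PRPF6 the log2 fold change was -0.036 within the first barcode set (adjusted p = 0.949) and -0.96 among the p2 and p3 embryos (adjusted p = 0.00287). PRPF31, which binds the U4 RNA, went from 31.6 ± 4.29 CPM on Day 2 to 62.9 ± 28.2 on Day 3 with no overlap (log2 fold change 1.32, standard error 0.36, adjusted p = 0.0103), and was not called within the first barcode set (log2 fold change 0.91, adjusted p = 0.159). PRPF8, the large protein at the heart of the catalytic centre, had 65.5, 71.7 and 87.6 CPM on Day 2 and 41.6, 104 and 255 on Day 3 (log2 fold change 1.01, standard error 0.41, adjusted p = 0.0670). Its Day 3 values ran from below the Day 2 range, in Day3-E5 and Day3-E1, to 255 in Day3-E8, and it passed without Day3-E1, Day3-E3 or Day3-E5 (adjusted p = 0.0222 to 0.0436).

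The remaining PRPF genes act at other steps, and 4 of 5 rose. PRPF19, a ubiquitin ligase that helps to activate the assembled spliceosome, had 79.7 to 113 CPM (median 93.3) on Day 2 and 142, 307 and 569 (lowest, median and highest) on Day 3, with no overlap (log2 fold change 1.98, standard error 0.30, adjusted p = 0.000204 in edgeR). Its highest value was in Day3-E7 and its lowest in Day3-E2, so it did not follow the order of embryos seen for SF3B1. PRPF4B, a kinase of tri-snRNP proteins, had 67.4, 99.5 and 132 CPM on Day 2 and 81.6, 232 and 358 on Day 3 (log2 fold change 1.47, standard error 0.36, adjusted p = 0.00541). PRPF38A (log2 fold change 1.32, adjusted p = 0.00321) and PRPF39 (log2 fold change 1.36, adjusted p = 0.0216), a U1-associated factor, rose too, PRPF39 not without Day2-E3 (adjusted p = 0.0561). PRPF19 was called within the first barcode set (log2 fold change 0.88, adjusted p = 0.0264), and PRPF4B, PRPF38A and PRPF39 were not (log2 fold changes 1.101, 0.62 and 0.79, adjusted p = 0.150 to 0.532). PRPF18, a factor of the second catalytic step and the most abundant PRPF gene, had 747 to 1030.3 CPM (median 855) on Day 2 and 1206 in Day3-E1, above the Day 2 range, against 324 to 741 in the other Day 3 embryos, all below it. Over the days the change did not pass the test (log2 fold change -0.23, standard error 0.18, adjusted p = 0.352).

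U6 carries a ring of its own, made of LSM2 to LSM8, of which 5 genes were not called. LSM8, the subunit that keeps the ring in the nucleus, rose and so did LSM4, while 21.2% of all genes tested rose. LSM8 had 10.69 to 31.9 CPM (median 17.3) on Day 2 and 16.66, 102, 31.4, 439, 57.2, 59.2, 184 and 185 in Day3-E1 to Day3-E8 in turn. Day3-E1 and Day3-E3 overlapped with Day 2 and Day3-E4 stood alone at the top (log2 fold change 3.24, standard error 0.69, adjusted p = 0.00236 in edgeR). A Day 2 embryo held between 5 and 18 UMI of this gene, and the exact Poisson interval for counting error of the Day3-E4 value was 371 to 516 CPM. LSM4 had 119.8 ± 19.3 CPM on Day 2 and 161 ± 42.1 on Day 3 (log2 fold change 0.70, standard error 0.22, adjusted p = 0.0207), but with spike-in scaling its log2 fold change was -0.18, and the call was lost without Day2-E1, Day2-E3 or Day2-E6 (adjusted p = 0.0587 to 0.0702). Neither LSM8 nor LSM4 was called within the first barcode set (log2 fold changes 1.80 and 0.04, adjusted p = 0.108 to 0.949). LSM3, the most abundant of the ring, had 421, 454 and 522 CPM on Day 2 and 363, 441 and 684 on Day 3 (log2 fold change 0.34, standard error 0.20, adjusted p = 0.201). LSM7 (log2 fold change -0.41, adjusted p = 0.109) lay below the Day 2 range in 7 of 8 Day 3 embryos without passing the test. Of the LSM genes outside this ring, LSM1, which takes the place of LSM8 in the cytoplasmic ring of mRNA decay, LSM12 and LSM14A, a protein of mRNA storage granules, were tested, and none was called (log2 fold changes 0.40, -0.25 and 0.28).

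Of the 10 SR protein genes 8 rose and none fell. SRSF3, the smallest of the classical SR proteins, which also takes part in mRNA export, stood at 34.8 to 44.9 CPM (median 40.5) on Day 2. On Day 3 it had 163, 593, 841, 977, 918, 1315, 1607 and 1043 in Day3-E1 to Day3-E8 in turn. Day3-E1 had the lowest Day 3 value and still lay above all Day 2 embryos (log2 fold change 4.85, standard error 0.44, adjusted p = 4.60e-06 in edgeR). The mean CPM was 23.3 times higher on Day 3, and SRSF3, lower on Day 2 than every SR gene but SRSF6, was the most abundant SR gene on Day 3. It was called within the first barcode set (log2 fold change 3.48, adjusted p = 0.000863), among the p2 and p3 embryos (5.15, adjusted p = 1.45e-09) and with spike-in scaling (3.84, adjusted p = 2.23e-07).

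SRSF6 rose from 13.19, 21.7 and 29.9 CPM (lowest, median and highest) on Day 2 to 26.7, 149 and 273 on Day 3, with Day3-E1 in the Day 2 range (log2 fold change 3.23, standard error 0.54, adjusted p = 0.000405 in edgeR). SRSF2, which unlike most of the family stays in the nucleus, went from 162 ± 23.9 CPM on Day 2 to 758 ± 348 on Day 3 (log2 fold change 2.56, standard error 0.37, adjusted p = 0.000149). SRSF11 (log2 fold change 2.39, adjusted p = 0.000868), SRSF4 (log2 fold change 1.97, adjusted p = 0.000682), SRSF1 (log2 fold change 1.51, adjusted p = 0.00167) and SRSF5 (log2 fold change 1.39, adjusted p = 0.00591) rose with 6 or 7 Day 3 embryos above every Day 2 embryo. SRSF10 rose little but evenly, from 250.0 ± 27.4 to 308 ± 32.4 CPM (log2 fold change 0.58, standard error 0.16, adjusted p = 0.0139), with a log2 fold change of -0.17 under spike-in scaling. It lost the call without Day2-E3 or Day2-E5 (adjusted p = 0.0533 to 0.0572). SRSF6, SRSF2 and SRSF11 were called within the first barcode set (log2 fold changes 2.39, 1.29 and 1.90, adjusted p = 0.0264 to 0.0305), and SRSF4, SRSF1, SRSF5 and SRSF10 were not (log2 fold changes 1.17, 1.13, 1.45 and 0.60, adjusted p = 0.0597 to 0.100). SRSF7, a close relative of SRSF3, had 132 to 224 CPM (median 204) on Day 2 and 112, 210.2, 183, 248, 198, 274, 430.0 and 914 in Day3-E1 to Day3-E8 in turn. Day3-E8 stood far above the rest, 3 of the other Day 3 embryos lay inside the Day 2 range and Day3-E1 below it, and the gene missed the threshold (log2 fold change 1.17, standard error 0.45, adjusted p = 0.0571), which it passed without Day3-E1, Day3-E3 or Day3-E5 (adjusted p = 0.0157 to 0.0391). SRSF9 had 128 ± 15.01 and 92.3 ± 27.0 CPM (log2 fold change -0.23, adjusted p = 0.329).

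**Figure D3:**
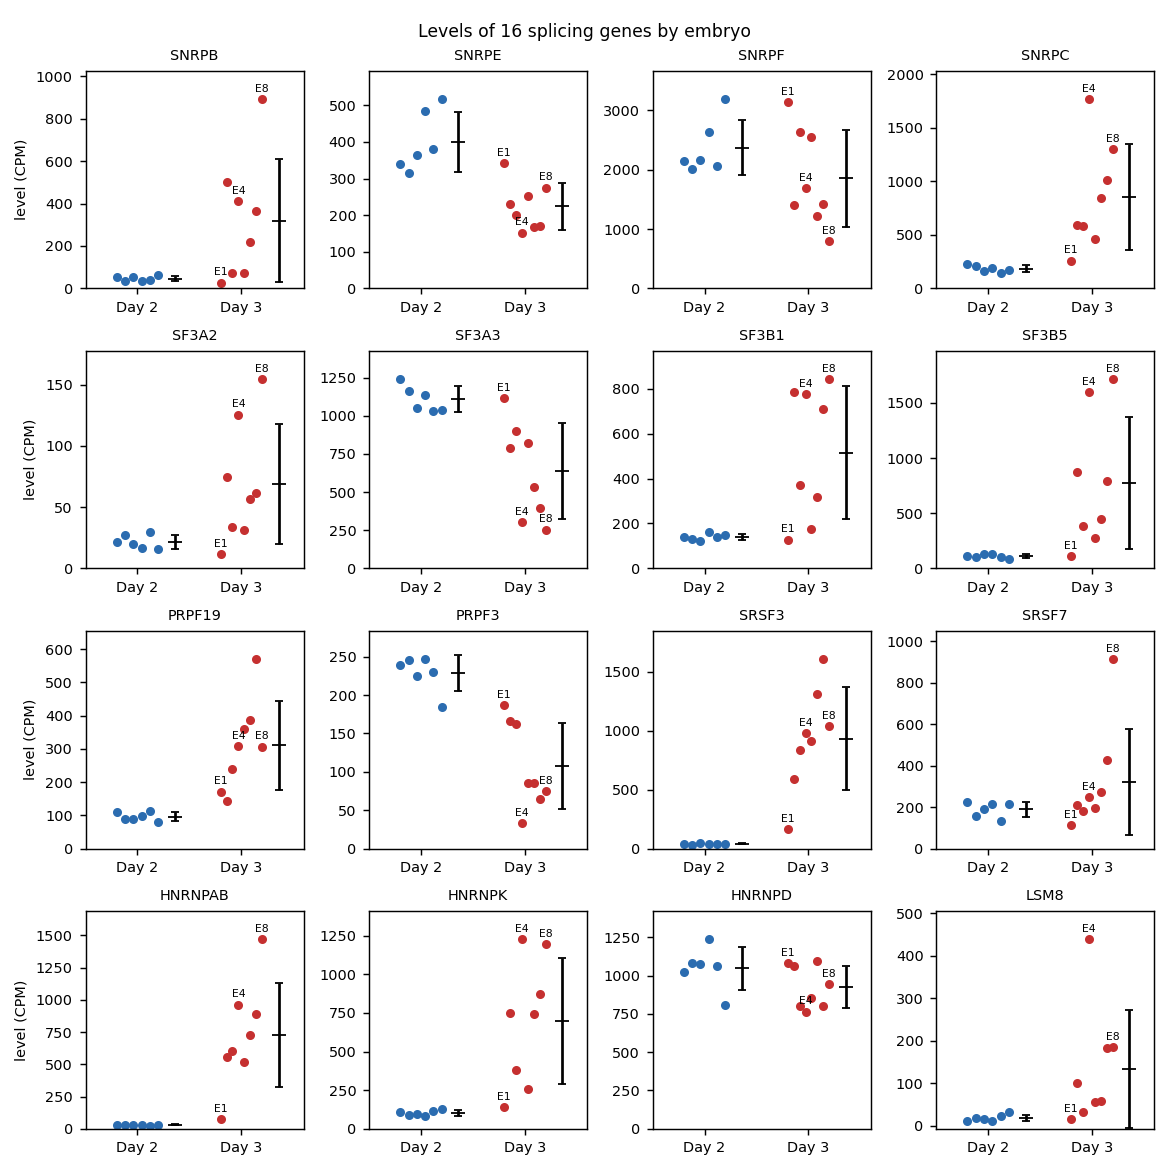
Level in CPM (y axis) of 16 splicing genes in each Day 2 embryo (blue) and Day 3 embryo (red), in the order of embryo number, with mean and SD in black and Day3-E1, Day3-E4 and Day3-E8 marked. SRSF3 and HNRNPAB go from 44.9 CPM or less in all Day 2 embryos to a mean of 932 and 726 on Day 3, SF3A3 and PRPF3 lie below every Day 2 value in 7 of 8 Day 3 embryos, and Day3-E1 stays near the Day 2 values in most panels.

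The hnRNPs coat nascent transcripts. Of 17 genes tested 12 rose, none fell, and the changes ranged from -0.36 to 4.999 on the log2 scale. HNRNPAB, an A/B-type hnRNP, had the largest rise of all 72 genes. It had 21.8 to 32.1 CPM (median 31.1) on Day 2 and 74.98, 559, 605, 962, 519.9, 725, 892 and 1467 in Day3-E1 to Day3-E8 in turn. No Day 3 embryo overlapped with Day 2 (log2 fold change 4.999, standard error 0.56, adjusted p = 2.84e-05 in edgeR). A Day 2 embryo held 14 to 27 UMI of it and Day3-E1 45, which gives an exact Poisson interval for counting error of 54.7 to 100.3 CPM in that embryo. HNRNPK, a poly(C)-binding protein, had 82.2 to 128 CPM (median 101) on Day 2 and 140.0, 745 and 1225 (lowest, median and highest) on Day 3, the lowest again in Day3-E1 and without overlap (log2 fold change 3.154, standard error 0.49, adjusted p = 0.000281). Both were called within the first barcode set, with log2 fold changes of 3.68 (adjusted p = 0.00421) and 2.37 (adjusted p = 0.0119).

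HNRNPH1 (log2 fold change 2.96, adjusted p = 0.000298 in edgeR), HNRNPA1 (log2 fold change 2.69, adjusted p = 0.000139) and HNRNPDL (log2 fold change 2.54, adjusted p = 0.000597) followed. Reads of HNRNPA1, a repressor of exon inclusion with many processed pseudogenes in mammals, could be shared with such copies. HNRNPM (log2 fold change 1.94, adjusted p = 0.00236), HNRNPL (log2 fold change 1.71, adjusted p = 0.00944), HNRNPF (log2 fold change 1.56, adjusted p = 0.00800), HNRNPU (log2 fold change 1.31, adjusted p = 0.0178), which also binds chromatin, and HNRNPR (log2 fold change 1.01, adjusted p = 0.0219) rose to a mean of 166 CPM for HNRNPL to 1202 for HNRNPU, and HNRNPR lost its call without Day2-E1 (adjusted p = 0.0528). Of these, HNRNPA1, HNRNPDL and HNRNPM were called within the first barcode set (log2 fold changes 2.29, 1.95 and 1.73, adjusted p = 0.0129 to 0.0340), and HNRNPH1, HNRNPL, HNRNPF, HNRNPU and HNRNPR were not (log2 fold changes 1.54, 0.56, 1.03, 1.36 and 0.76, adjusted p = 0.0702 to 0.486). The abundant HNRNPD, which binds AU-rich mRNA, was not called. It had 807, 1071 and 1236 CPM on Day 2 and 765, 899 and 1096 on Day 3 (log2 fold change 0.10, standard error 0.16, adjusted p = 0.671), with a negative log2 fold change of -0.17 without TMM scaling. HNRNPD, which held 25.3 to 48.9 UMI per UMI of the related HNRNPAB on Day 2, held 0.642 to 1.90 in Day3-E2 to Day3-E8 and 14.44 in Day3-E1. These genes were picked for the high level of HNRNPD and the large rise of HNRNPAB, so their ratio is given without a test. HNRNPA2B1, which binds m6A-marked RNA, had 218, 271 and 312 CPM on Day 2 and 172, 286 and 669 on Day 3 and did not pass the test (log2 fold change 0.70, standard error 0.34, adjusted p = 0.116). Only Day3-E2 and Day3-E8 lay above its Day 2 range. HNRNPC (log2 fold change 0.39, adjusted p = 0.147), HNRNPH3 (log2 fold change 0.15, adjusted p = 0.496) and HNRNPUL2 (log2 fold change -0.36, adjusted p = 0.277) were not called.

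The last 2 hnRNP genes called, HNRNPUL1 and HNRNPA3, had small and even rises, which turned to log2 fold changes of -0.07 and -0.26 under spike-in scaling. HNRNPUL1 had 196 to 311 CPM (median 283) on Day 2 and 322 to 420.3 on Day 3, with no overlap (log2 fold change 0.75, standard error 0.17, adjusted p = 0.00317 in edgeR). HNRNPA3 had 137 to 213 CPM (median 162) on Day 2 and 167 to 237 on Day 3, and only Day3-E2 lay above the Day 2 range (log2 fold change 0.50, standard error 0.18, adjusted p = 0.0366). HNRNPA3 lost its call without Day2-E1, Day2-E2, Day2-E3, Day2-E5, Day2-E6, Day3-E2, Day3-E4, Day3-E7 or Day3-E8 (adjusted p = 0.0561 to 0.127), and within the first barcode set neither was called (log2 fold changes 0.51 and 0.55, adjusted p = 0.159 to 0.192).

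The Day 3 embryos differed more among themselves than the Day 2 embryos did. All Day 2 embryos were of the first barcode set and the Day 3 embryos of both, so pool differences lie within Day 3 only. The embryos of a day also differed in cleavage timing and in the time from fertilisation to collection. The part of pool, cleavage timing and collection time in the spread was not tested. The coefficient of variation (CV, SD over mean) of CPM over the 8 Day 3 embryos had a median of 43.8% over the 68 genes, against 45.4% over all 5274, and over the 6 Day 2 embryos of 15.33% against 18.4%. It was larger on Day 3 than on Day 2 for 64 of the 68 genes and for 5025 of all 5274. The splicing genes thus varied about as much as genes in general, with 31 of the 68 above the median CV of all genes. The highest values were those of LSM8 (103%), SNRPB (91.1%) and SRSF7 (79.9%), in which 1 or a few embryos stood high. The lowest were those of HNRNPA3 (10.41%), HNRNPUL1 (10.42%) and SRSF10 (10.53%). A CV holds counting error too, which is larger in scarce genes.

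Embryo by embryo, the 39 genes that rose summed to 7283 to 8407 CPM on Day 2. On Day 3 the sums were 8274, 21311, 15252, 27416, 12900.1, 19889, 23852 and 30148 CPM in Day3-E1 to Day3-E8 in turn. Day3-E1 thus stayed within the Day 2 range. For 20 of the 39 genes its value lay in the range of the Day 2 embryos, a share to be read beside the 57.7% of all 1117 genes that rose for which it did. It was the lowest Day 3 embryo for 27 of the 39. The highest value was that of Day3-E8 for 20 genes and of Day3-E4 for 8, together 28 of 39, against 73.1% of all genes that rose. Day3-E2, of the first barcode set, had the highest value for 5 genes and lay above every Day 2 embryo for 37. Among the Day 3 embryos the last timed cleavage came latest in Day3-E1 and earliest in Day3-E8 and Day3-E4. Whether the levels follow cleavage timing was not tested. The splicing genes that rose were chosen by these same values, so the counts describe the embryos and test nothing.

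**Figure D4:**
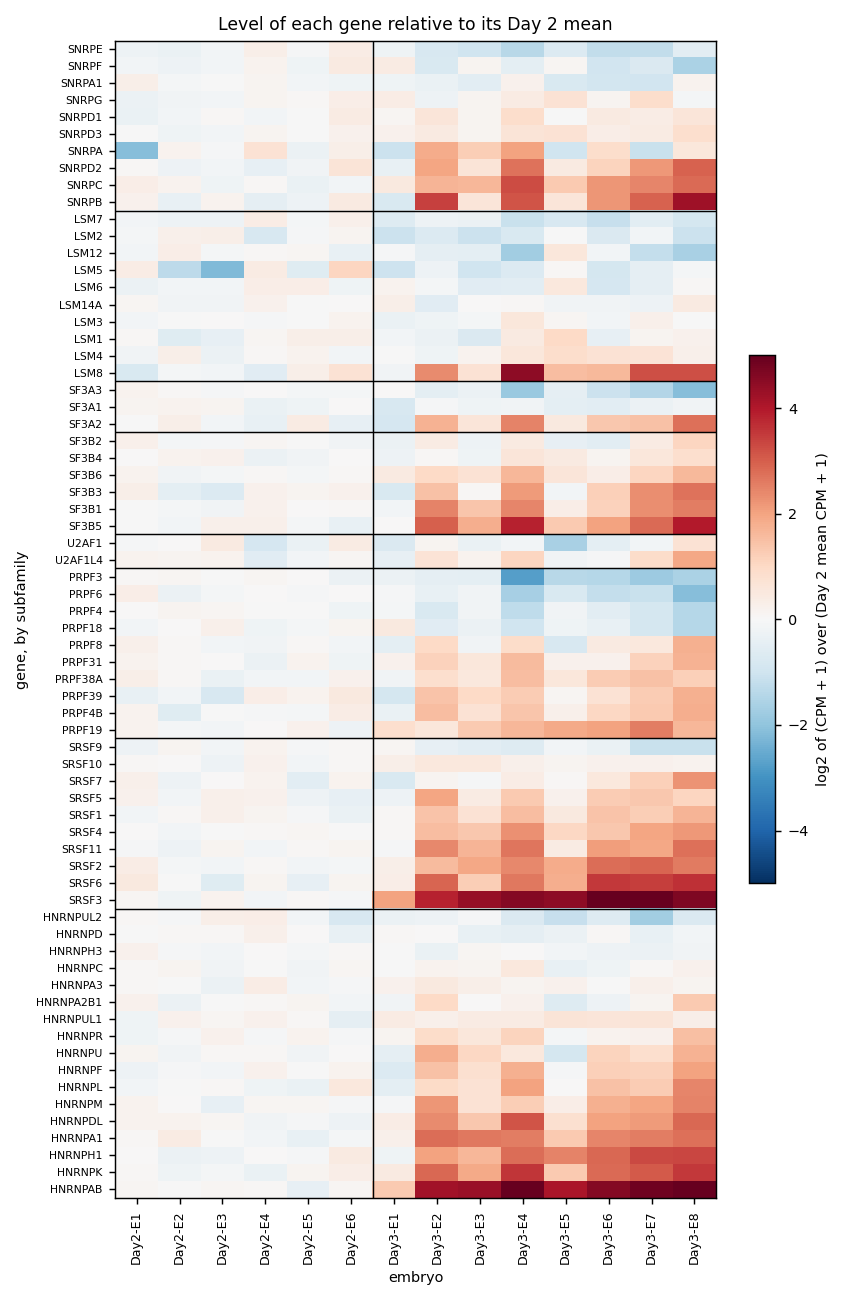
Level of each of the 68 tested genes in each of the 14 embryos, as the log2 ratio of CPM + 1 to the Day 2 mean CPM + 1 (red, higher; blue, lower), with genes grouped by subfamily. The column of Day3-E1 is pale for most genes other than SRSF3 and HNRNPAB, Day3-E3 and Day3-E5 are intermediate, Day3-E8 carries the darkest red for SNRPB, SF3B5 and HNRNPAB, and Day3-E4 and Day3-E8 the darkest blue for SF3A3.

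Single blastomeres showed how widely these transcripts were spread. Of the 161 cells, 42 of the 72 genes had a UMI in 90% or more, and 2 had one in every cell. The same counts were not made over all genes. These counts and those that follow therefore do not set splicing genes apart from others. Since Day 2 cells were deeper, each cell was also thinned to 10000 UMI, which left 37 Day 2 and 103 Day 3 cells and removed 6 and 15. The median thinned cell contained UMI of 49 of the 72 genes on Day 2 and of 55 on Day 3 (unthinned, 68 and 63). By embryo the mean was 48.4 to 51.5 genes on Day 2, 49.3 for Day3-E1 and from 51.5 up to 59.3 for the rest of Day 3. Blastomeres alone were collected, so there was no cell type lacking these genes to set a background of free RNA.

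SRSF3 had a UMI in 37.8% of thinned Day 2 cells and 97.1% of thinned Day 3 cells (unthinned, 79.1% and 98.3%). By embryo the thinned share was 20.0% to 57.1% on Day 2, 84.6% in Day3-E1, and it ran from 92.3% to 100% over Day3-E2 to Day3-E8. In Day3-E1 the gene was thus found in most cells. HNRNPAB had 27.0% and 89.3% (unthinned, 81.4% and 92.4%), with 53.8% in Day3-E1 and 69.2% in Day3-E5. SRSF6 had 10.81% and 67.0% (unthinned, 81.4% and 83.1%), and its embryos ranged on Day 3 from 30.8% in Day3-E1 to 100% in Day3-E8. The share for PRPF3 went the other way, from 89.2% to 58.3% (unthinned, 90.7% and 73.7%). By embryo it was 66.7% to 100% on Day 2, 84.6% to 92.3% in Day3-E1 to Day3-E3, within that range, and 18.2% to 50.0% in Day3-E4 to Day3-E8, the second barcode set.

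The count of splicing genes that rose differed with the scaling and with the embryos used. With library size alone 33 rose and 6 fell, and with scaling to the spike-ins 18 rose and 11 fell, while the median log2 fold change of all genes was -0.27 and -0.77. All genes had 16.88% higher and 18.6% lower with the former, and 8.65% and 36.2% with the latter. The rises not called by library size alone were those of HNRNPA3, LSM4, SNRPD1, SNRPG, SRSF10 and U2AF1L4 (adjusted p = 0.0870 to 0.295 in edgeR). The distance between the median of the splicing genes and that of all genes was 1.05, 0.92 and 0.82 under the 3 scalings. Within the first barcode set, which leaves 2 Day 3 embryos, one of them Day3-E1, 15 rose and 0 fell of 69 tested, against 5.28% and 0.388% of all genes, and all 39 genes kept a positive log2 fold change. The 15 were SNRPB, SNRPC, SF3B1, SF3B5, SF3B6, PRPF19, SRSF2, SRSF3, SRSF6, SRSF11, HNRNPA1, HNRNPAB, HNRNPDL, HNRNPK and HNRNPM. Among the p2 and p3 embryos alone, with the title suffix in the model, 37 rose and 4 fell (LSM7, PRPF3, PRPF6 and SF3A3), against 19.9% and 18.0%, and of the 39 genes 35 were called again (not HNRNPA3, HNRNPR, SRSF10 and U2AF1L4).

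Other genes of the pathway, listed by function in 7 groups, were read in the same fit. Of 84 tested, 36 rose and 6 fell, against 21.2% and 11.28% of all genes, with a median log2 fold change of 0.44 against -0.04. Of those that rose, SNU13, CWC15 and CLK3 had negative log2 fold changes of -0.19, -0.29 and -0.01 under spike-in scaling. Among snRNP proteins under other names, 9 of 18 rose and 1 fell. The largest rise there was that of PHF5A, the subunit that binds SF3B1, from 5.28, 9.88 and 11.52 CPM (lowest, median and highest) to 14.995, 87.4 and 232 (log2 fold change 3.98, standard error 0.71, adjusted p = 0.000669 in edgeR). PHF5A had 36 UMI in all Day 2 embryos together and failed the filter on low counts within the first barcode set, so that it entered the test through its values in the other Day 3 embryos. EFTUD2, the GTPase of U5, fell (log2 fold change -0.77, adjusted p = 0.0196). Of the spliceosomal helicases 4 of 9 rose and 1 fell, led by DHX16 (log2 fold change 2.33, adjusted p = 0.00146), with DHX35 lower (log2 fold change -1.09, adjusted p = 0.0238), a call lost without Day2-E3 (adjusted p = 0.0577). In the PRPF19 complex and the step factors 6 of 17 rose and 3 fell, and the ends of the range were SLU7, a factor of the second catalytic step (log2 fold change 2.01, adjusted p = 9.99e-05), and RBM17 (log2 fold change -0.96, adjusted p = 0.00358). SLU7 was called within the first barcode set (log2 fold change 1.36, adjusted p = 0.00893), and DHX16, EFTUD2, DHX35 and RBM17 were not (log2 fold changes 1.77, -0.24, -0.67 and -0.63, adjusted p = 0.0881 to 0.624).

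The exon junction complex marks spliced mRNA, and 4 of 8 rose and 1 fell of its genes and partners. ALYREF, an mRNA export adaptor, had 34.2, 44.2 and 63.9 CPM on Day 2 and 119, 243 and 502 on Day 3 (log2 fold change 2.93, standard error 0.33, adjusted p = 2.92e-05 in edgeR), while CASC3, of the core of the complex, fell (log2 fold change -0.75, adjusted p = 0.00992). The SMN complex loads Sm rings onto snRNA, and of its genes and partners 1 of 7 rose and 0 fell, while 21.2% of all genes rose. The gene that rose was WDR77, a partner of the arginine methyltransferase PRMT5 and not a subunit of the SMN complex (log2 fold change 2.601, adjusted p = 0.00399). Among other splicing regulators 10 of 21 rose and 0 fell. TRA2B, an SR-like activator of exons, had the largest change of all lists, from 77.6, 96.1 and 105 CPM to 353, 3488 and 4902, with Day3-E1 the lowest of Day 3 but above all Day 2 embryos (log2 fold change 5.34, standard error 0.53, adjusted p = 7.99e-06). Of the kinases that phosphorylate SR proteins, 2 of 4 rose and 0 fell, and CLK1 had the larger rise (log2 fold change 3.62, adjusted p = 5.93e-05). Within the first barcode set ALYREF, WDR77, TRA2B and CLK1 were called (log2 fold changes 1.78, 2.098, 4.37 and 2.23, adjusted p = 0.000918 to 0.0374) and CASC3 was not (log2 fold change -0.51, adjusted p = 0.175).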

How the data were processed

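SCRB-Seq libraries of 170 single blastomeres were analysed from the UMI count table that the authors deposited. The authors made these counts with the Drop-seq pipeline and STAR 2.5.2b on Bos tau7, per the submitters' processing notes. Here 161 cells with 2000 or more UMI were kept, and counts were summed per embryo without the 92 ERCC rows. Day 3 was tested against Day 2 with edgeR 4.0.16 in R 4.3.3 (filterByExpr, TMM, quasi-likelihood test, two-sided, Benjamini-Hochberg adjustment over all genes). The fit was tested on simulated data. DESeq2 1.42.0, other scalings, filters, cells, title suffixes (p1, p2, p3), barcode sets and left-out embryos were alternatives. Members and gene lists were chosen with earlier results of these data known. Genes named at length were, per subfamily, the 2 called genes with the largest rise and the 2 with the largest fall and the gene of highest mean CPM, also SF3B1, PRPF8, U2AF1, SRSF3 and HNRNPA2B1, the 3 highest and 3 lowest Day 3 CVs, and per list of other genes the called gene with the largest rise and that with the largest fall, and most other members are given more briefly. Intervals are exact Poisson intervals at 95% and cover counting error only. Read strand was not stated, so overlapping antisense transcripts cannot be told apart.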

Additional observations from a re-analysis of the deposited data

Results flagged for a closer look

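Of 94 groups of 6 or 8 embryos examined, 9 held 1 embryo whose value lay far from the others by Dixon's test, and chance alone gives about 1 such group in 20. Of these, 4 were high values of Day3-E8. U2AF1L4 stood at 283 CPM, against 55.0 to 155 in the other Day 3 embryos, SRSF7 at 914 CPM, against 112 to 430.0, and WDR77 at 227 CPM, against 18.3 to 109. The summed U2AF level of Day3-E8 was 366 CPM, against 80.6 to 200.2, which follows from U2AF1L4 in part. LSM8 reached 439 CPM, against 16.66 to 185 in the other Day 3 embryos, in Day3-E4. PRPF18 in Day3-E1 had 1206 CPM, against 324 to 741. On Day 2, PRPF3 was low in Day2-E6, with 185 CPM, against 224 to 247, and HNRNPAB in Day2-E5, with 21.8 CPM, against 29.3 to 32.1. DHX16 was high in Day2-E1, with 74.8 CPM, against 27.7 to 38.7.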

How the results depend on the processing

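With all 170 cells or thinned cells, the ratio of each subfamily's sums between the days moved by less than the spread of the embryos, and the median Day 3 CV was 39.8% without Day3-E1 to 49.7% with TMM-scaled CPM. Over the named genes and alternatives, 859 of the values kept direction and side of the threshold, 98 lost the threshold, 19 passed it and 28 changed sign, and where no cause is named it was not tested. Against 39 higher and 2 lower splicing genes, spike-in scaling gave 18 and 11, library size alone 33 and 6, cells thinned to 10000 UMI 25 and 1 of 56 tested, DESeq2's size factors 39 and 1, DESeq2's own test 43 and 5, and the p2 and p3 embryos alone 37 and 4. The first barcode set gave 15 and 0, and with Day3-E3, chosen after seeing the data, 21 and 0, with fewer embryos. Leaving out 1 embryo gave 32 to 43 higher and 1 to 4 lower. Against 36 and 6 among other splicing genes, spike-in scaling gave 13 and 22, the first set 14 and 0, with Day3-E3 19 and 1, and lower calls were 13 by library size, 10 by DESeq2, 3 in thinned cells, 10 with the title suffix as a covariate, 12 among p2 and p3 embryos, and 5 to 12 leaving out 1 embryo. Over the splicing genes the median share of cells with a UMI was 93.0% on Day 2 and 93.2% on Day 3, and 78.4% and 88.3% thinned. It was not taken over all genes.

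The embryo numbers did not pair the embryos (correlations of deviations -0.13 to 0.03, and no embryo correlated best with its own number). With the replicate number as a block, to which Day3-E7 and Day3-E8 add nothing for want of a partner, 21 splicing genes were higher and 0 lower, 23 and 3 among other genes, and U2AF1 had a log2 fold change of -0.27.

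Signs changed as follows. With spike-in scaling the log2 fold change was -0.18 for LSM4, -0.54 for LSM3, -0.67 for HNRNPD, -0.76 for U2AF1, -0.16 for HNRNPA2B1, -0.26 for HNRNPA3, -0.068 for HNRNPUL1 and -0.17 for SRSF10. In the first set, without and with Day3-E3, it was 0.070 and 0.15 for SNRPF, -0.098 and -0.050 for LSM3, 0.18 and 0.080 for PRPF18, -0.10 and -0.13 for U2AF1, and -0.057 and -0.00071 for SRSF7. By library size it was -0.17 for HNRNPD and -0.20 for U2AF1, in thinned cells -0.079 for HNRNPD, and with the title suffix as a covariate and among p2 and p3 embryos -0.0075 and -0.013 for U2AF1. Leaving out 1 embryo gave -0.023 to 0.15 for HNRNPD, negative without Day2-E6 or Day3-E8, and -0.21 to 0.27 for U2AF1, negative without Day2-E4 or Day3-E8. Genes with few UMI, such as HNRNPLL and LSM10, were too shallow to be compared.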
